A study of Mus musculus with 547 samples.

Results

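The 30 genes described here encode the steps of fatty acid oxidation and ketone body formation, and they were followed through the mouse fetal liver from E10.5 to E18.5. They were chosen by gene symbol out of 40824 genes in the deposited count tables, and all 30 were found. By place of action, 19 members act in mitochondria, 2 on the outer mitochondrial membrane and other membranes, 6 in peroxisomes and 2 in both organelles, and 1, Fgf21, is secreted. By role, they are 2 activating enzymes, 1 thioesterase, 4 genes of the carnitine shuttle, 4 acyl-CoA dehydrogenases, 3 electron transfer genes, 5 genes of the later steps of the cycle, 3 genes for unsaturated fatty acids, 6 peroxisomal genes, 1 ketogenic enzyme and 1 hormone.

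The study followed hepatoblasts, the progenitors of the fetal liver, on their way to hepatocytes or to cholangiocytes, the lining cells of bile ducts. Bulk libraries were made from pools of sorted cells that carried the hepatoblast surface protein DLK1, with 2 libraries on each of 9 days from E10.5 to E18.5. Single cells were sorted as DLK+ or as EpCAM+ (an epithelial surface protein), picked by hand and sequenced at full length, and the labels give each a putative type, hepatoblast/hepatocyte or cholangiocyte. How the type was assigned is not given in the sources used here, so the members may have taken part in it. Explant cells came from lobes of E12.5 livers kept in culture for 2 days. Control explants received the solvent alone. The others received 0.5 µM TPPB, which activates protein kinase C, or 10 µM U0126, which inhibits MEK kinases, or both together. All cells are mouse liver cells, and no group carries a labelled mutation or transgene; the strain is not given in the sources used here. Reads of picked cells were summed per group and set number, with at least 2 cells per sum, and these sums served as replicates. DLK+ cells gave 3 sums at E10.5 (54 cells), 3 at E14.5 (27 cells), 3 at E15.5 (39 cells) and 4 at E17.5 (35 cells). EpCAM+ cells annotated as cholangiocytes gave 3 sums each at E14.5 (17 cells), E15.5 (36 cells) and E17.5 (34 cells). At E14.5 the third set of both gates was deposited in a later block of samples than the other sets of that day. The fit of embryo sums holds no term for this.

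In fatty acid oxidation, long-chain fatty acids are first joined to coenzyme A, moved into mitochondria as carnitine esters, and then shortened in a repeated cycle of oxidation, hydration, oxidation and cleavage. Electrons from the cycle pass to the respiratory chain through the electron transfer flavoprotein, and in the liver the acetyl-CoA formed can be turned into ketone bodies for other organs. Peroxisomes shorten very long and branched chains, and the nuclear receptor PPARA controls many genes of both organelles. In rodents, the switch from glucose supplied by the mother to the fat of milk at birth makes the pathway of particular interest in the late fetal liver.

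Bulk libraries held 14385574 to 22791119 reads and picked cells 775883 to 2158699, with reads for 6682 to 11267 genes per cell. The 10 leading genes took 6.12 to 6.90% of the reads at E10.5 and 32.7 to 34.1% at E18.5, where albumin (Alb) led. Levels are therefore given as CPM (counts scaled to a common library size) after TMM normalization, which scales on the bulk of genes. Under plain total reads the median change of all genes from E10.5 to E18.5 was -1.45 on the log2 scale in bulk, and under TMM it was -0.02. The labelled type was checked with 6 hepatocyte markers, whose summed level was 15182 to 18903 CPM at E10.5 and 337423 to 390050 CPM at E18.5. Markers of other cells were far lower and also moved: the summed level of 6 mesenchyme markers was 666 to 841 CPM at E10.5 and 8.70 to 102 CPM at E18.5. Those of red cells (5 genes) were 4.18 to 5.65 CPM at E10.5 and at least 45.4 CPM, with a mean of 85.5, at E18.5, and those of granulocytes (3 genes) 3.97 to 4.59 CPM and at least 49.3 CPM, with a mean of 87.7. Their part in the bulk results was not tested. In picked DLK+ cells the mesenchyme sum was 5.98 to 8.09 CPM at E10.5, with Col1a1 and Dcn at 0, and 4.92 to 16.6 CPM at E17.5. The lists of endothelium, red cells, macrophages and granulocytes summed to at most 19.7 CPM in those sums. In bulk libraries, fewer cells of a type and less RNA per cell cannot be told apart.

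From E10.5 to E18.5, 29 members rose and 1, the thioesterase Acot2, fell in bulk DLK+ cells. Over all 15275 genes tested, 32.6% were called higher and 32.5% lower, so the members' count stood well above the background in 1 direction. Calls are those of edgeR's quasi-likelihood test at a Benjamini-Hochberg adjusted p below 0.05 over all genes. The median change of the members was 3.01 on the log2 scale. With scaling by total reads alone, 25 members were called higher and 2 lower.

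The activating enzymes, which join fatty acids to coenzyme A, rose strongly. Acsl1, the main form in liver (chr8:46471037-46536051, plus strand, GRCm38), was at 115 and 105 CPM at E10.5, 299 and 516 at E14.5, and 2879 and 2661 at E18.5. The days did not overlap, and the change from first to last day was 4.65 ± 0.28 (log2 ± SE, edgeR adjusted p = 3.1e-09). Acsl5, which also serves fat synthesis, went from 69.6 and 62.9 CPM to 693 and 699 CPM, a change of 3.39 ± 0.23.

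Among the carnitine shuttle genes the range was wide. Cpt1a encodes the rate-limiting enzyme of entry into mitochondria (chr19:3322334-3385733, plus strand). Its levels were 11.9 and 8.73 CPM at E10.5, 33.5 and 27.7 at E11.5, 29.8 and 31.7 at E14.5, 57.6 and 40.9 at E16.5, 122 and 144 at E17.5, and 339 and 334 at E18.5. The gene thus had an early step, a flat stretch to E14.5 and a steep climb over the last 2 days. Its change over the whole course was 5.03 ± 0.23 (edgeR adjusted p = 3.1e-10). Slc25a20, the carnitine carrier of the inner membrane, rose by 1.57 ± 0.16, from 32.8 and 26.4 to 93.0 and 82.8 CPM. Cpt2, which releases the fatty acid again inside mitochondria, rose by 0.84 ± 0.20 (edgeR adjusted p = 0.0019), and its levels of 82.2 and 68.3 CPM at E18.5 lay below its peak of 93.8 and 139 CPM at E13.5. Scaled by total reads, Cpt2 changed by -0.59. Crat, which exchanges short acyl groups with carnitine in mitochondria and peroxisomes, went from 14.3 and 12.1 to 109 and 110 CPM, a change of 3.05 ± 0.19.

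All 4 acyl-CoA dehydrogenases, which make the first oxidation and differ in chain length, rose. Acadm, for medium chains (chr3:153922357-153944632, minus strand), went from 72.1 and 66.5 CPM to 1019 and 846 CPM, a change of 3.75 ± 0.25. Acadl, for long chains, rose by 3.60 ± 0.21, and Acadvl, for very long chains, by 3.44 ± 0.25. Acads, for short chains, rose least in this group, by 1.86 ± 0.25. Of the exon bases of Acadvl, 42.9% lie under Dvl2 on the opposite strand, and no source says whether reads were counted by strand, so those of this pair cannot be told apart.

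The electron transfer genes rose together. Etfa and Etfb, the subunits of the flavoprotein, changed by 2.79 ± 0.21 and 2.33 ± 0.24, and Etfdh, which hands the electrons to ubiquinone, by 3.00 ± 0.23. Of the exon bases of Etfb, 53.0% are shared with Gm45233 on the same strand, which makes its count uncertain. Of the later steps, Acaa2, the thiolase that cuts off acetyl-CoA, rose most, by 3.92 ± 0.27, from 125 and 98.9 to 1708 and 1671 CPM. Echs1, which hydrates the chain, rose by 1.98 ± 0.23, and Hadh, which makes the second oxidation, by 1.40 ± 0.19. Under total reads, Hadh changed by -0.03.

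Hadha and Hadhb encode the subunits of the trifunctional protein, which carries out the last 3 steps on long chains, and they lie head to head on chromosome 5. By the outermost gene ends of GENCODE M21 (GRCm38), Hadha, on the minus strand, begins at 30155162 and Hadhb, on the plus strand, at 30155248. The stretch between them, chr5:30155163-30155247, has 85 bases, 69.4% of which are G or C, and holds 9 CpG. It is shown, plus strand, because it separates both start sites of a pair that both rose; capitals mark CpG, and the letters are from RefSeq's GRCm38.p6.
Hadha to Hadhb: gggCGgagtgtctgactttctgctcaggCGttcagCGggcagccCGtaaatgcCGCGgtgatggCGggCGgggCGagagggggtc
Hadha was at 127 and 114 CPM at E10.5, 221 and 358 at E14.5, and 768 and 808 at E18.5. Hadhb was at 77.5 and 73.2 CPM, 155 and 221, and 605 and 624 on the same days. In both genes the 3 days kept the same order without overlap, with changes of 2.71 ± 0.21 and 3.03 ± 0.18 over the course.

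Genes for unsaturated chains move or remove double bonds that block the cycle. Eci1 and Eci2, which shift the bond, rose by 2.17 ± 0.16 and 2.59 ± 0.15, and Decr1, a reductase, by 2.88 ± 0.27. Eci2 acts in mitochondria and peroxisomes.

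All 6 peroxisomal members rose, by a median of 3.67. Acaa1b, a peroxisomal thiolase, had the largest fitted change after Fgf21, 7.33 ± 0.43 (edgeR adjusted p = 2.4e-09), from 0.344 and 0.587 CPM to 75.8 and 74.2 CPM. Its count is uncertain because Acaa1a is a near-identical copy. Ehhadh, a bifunctional enzyme of the classical peroxisomal route, rose by 5.50 ± 0.36, from 4.56 and 3.66 to 212 and 162 CPM. Hsd17b4, the bifunctional enzyme for branched chains and bile acid precursors, rose by 1.70 ± 0.22. The peroxisomal reductase Decr2 rose by 3.62 ± 0.26, and its E18.5 libraries differed, at 219 and 110 CPM. Pex11a, which promotes peroxisome division, went from 2.41 and 2.38 to 29.4 and 34.0 CPM, a change of 3.72 ± 0.28. Crot, which makes carnitine esters of medium chains for export from peroxisomes, peaked in mid course. Its levels were 30.5 and 28.9 CPM at E10.5, 150 and 242 at E14.5, 241 and 364 at E16.5, and 154 and 148 at E18.5, with a change of 2.35 ± 0.24 from first to last day.

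Bdh1, which turns acetoacetate into beta-hydroxybutyrate, is the ketogenic member (chr16:31422280-31458901, plus strand). Its levels were 44.6 and 34.9 CPM at E10.5, 251 and 249 on the next day, 331 and 425 at E12.5, 386 and 531 at E14.5, and 526 and 614 at E18.5. The E10.5 libraries stood apart from all others. The whole change was 3.84 ± 0.24 (edgeR adjusted p = 3.4e-09).

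Acot2, which splits acyl-CoA again inside mitochondria, was the member that fell (chr12:83987861-83993873, plus strand). It was at 14.3 and 12.3 CPM at E10.5, 40.9 and 32.3 at E12.5, 24.4 and 24.3 at E16.5, 5.16 and 8.18 at E17.5, and 6.07 and 5.40 at E18.5. The last 2 days lay below every earlier library, and the change over the course was -1.21 ± 0.25 (edgeR adjusted p = 5.5e-04). Acot1 is a near-identical copy, so this count is uncertain.

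Fgf21, a hormone made by the liver in fasting, had 0 reads in both E10.5 libraries. Its levels were 0.910 and 0.202 CPM at E17.5 and 0.272 and 3.94 CPM at E18.5. Set against 3 reads per library at E10.5, the upper limit for a count of 0, the E18.5 mean was 21.3-fold higher. That limit covers the E10.5 side only and not the spread between the E18.5 libraries. A single E18.5 library carried most of the mean. In picked cells Fgf21 had reads in 2 of 529 cells, with 1 and 73 reads, both from TPPB explants, and it was not tested there. The other 29 members were tested in cells.

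**Figure D1:**
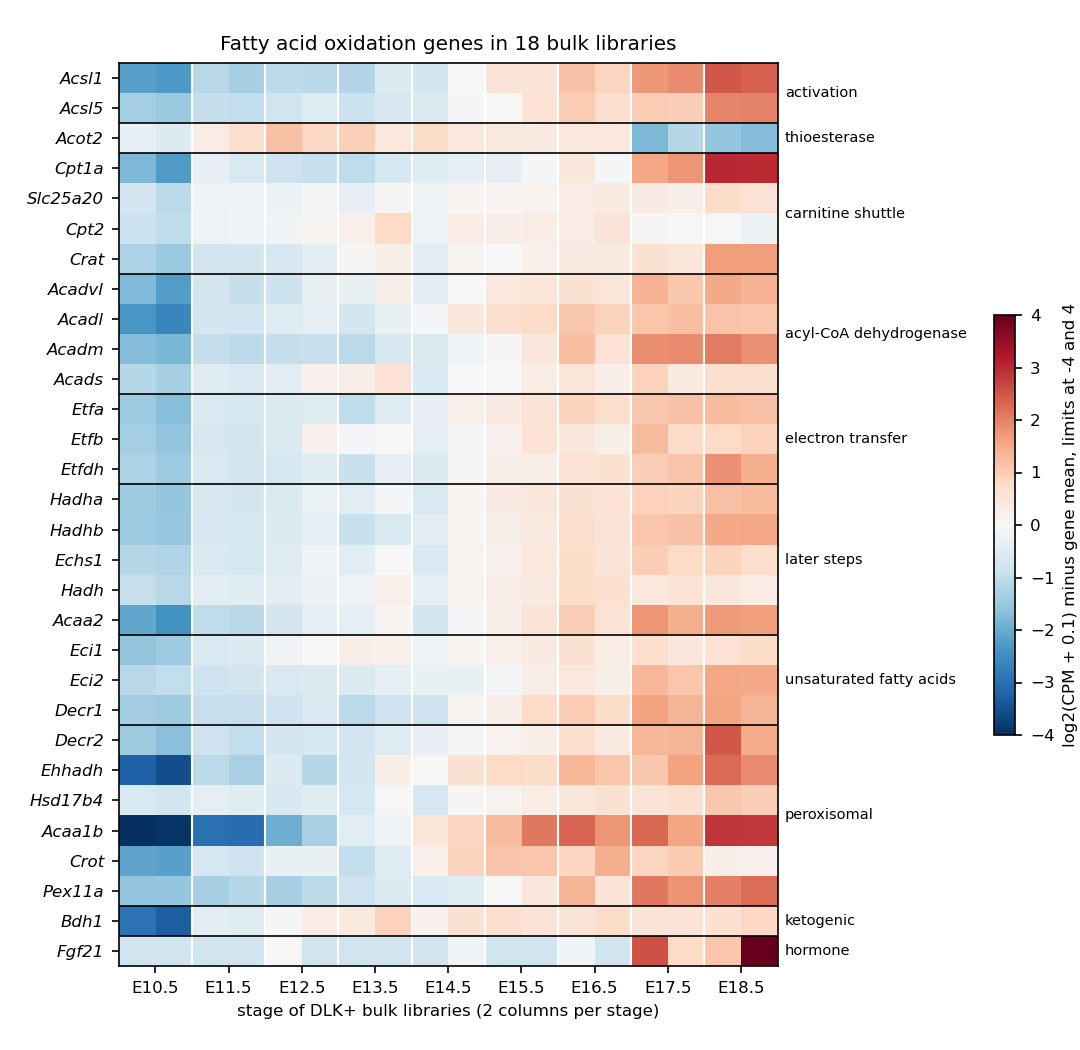
Levels of the 30 members (rows, grouped by role) in the 18 bulk libraries (columns, 2 per stage), coloured by log2(CPM + 0.1) minus the gene's mean over all libraries, with the scale limited at -4 and 4. Nearly all rows are blue (below their mean) at E10.5 and red (above it) at E18.5, Acot2 turns blue at E17.5 and E18.5, and Fgf21 is deep red in 1 of the E18.5 libraries.

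Levels between genes can be compared per transcript length, as TPM. At E10.5 Etfb led with 362 ± 22.1 TPM (SD, n = 2), before Acaa2 with 283, Etfa with 233 and Hadh with 227. At E18.5 Acaa2 led with 1227 ± 100, and Acsl1 with 540, Etfb with 523 and Acadm with 498 followed. Etfb had a spread of 81.0 TPM (SD, n = 2), so these 3 did not differ beyond it. Fgf21, Acot2 (2.86 TPM) and Pex11a (15.7 TPM) were lowest at E18.5. All members together took 2567 ± 141 TPM at E10.5 and 5996 ± 382 at E18.5; the peroxisomal members took 170 and 360 of these.

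The members did not rise at 1 time. By daily means of CPM after TMM, 21 members peaked at E18.5 and 5 at E17.5 (Acadl, Acads, Etfb, Echs1 and Decr1). Hadh and Crot peaked at E16.5, Cpt2 at E13.5 and Acot2 at E12.5. These peak days depend on the scale. In TPM, which holds no TMM factor, Bdh1 was at 383 at E13.5 and 202 at E18.5. Slc25a20 was at 88.8 TPM at E11.5 and 54.0 at E18.5, and Eci1 at 190 TPM at E13.5 and 130 at E18.5. The largest step between neighbouring days was the step to E11.5 for 20 members and the step to E17.5 for 5, namely Acadm, Eci2, Decr2, Pex11a and Fgf21. From E10.5 to E11.5, 18 members rose and 0 fell, against a background of 9.55% higher and 3.82% lower among all genes. Bdh1 rose most, by 2.65 ± 0.22 (edgeR adjusted p = 6.1e-06), then Ehhadh by 2.22 ± 0.33, Acadl by 1.73 ± 0.19, Cpt1a by 1.57 ± 0.20, Crot by 1.38 ± 0.23 and Acaa2 by 1.18 ± 0.25. All 4 carnitine shuttle genes were among the 18. Leaving out either library of these days left 6 to 11 calls: 11 and 6 without the first and second E10.5 library, and 10 without either E11.5 library. Summed mesenchyme markers were 183 to 325 CPM at E11.5, below the E10.5 libraries, and granulocyte markers were 82.5 to 154 CPM, above them. Macrophage markers (4 of 5 called higher, sum 13.4 to 31.0 CPM at E11.5), red cell markers (3 of 5, 9.59 to 41.5 CPM) and megakaryocyte markers (2 of 3, 7.70 to 14.4 CPM) rose as well, and 2 of 6 cholangiocyte markers were called lower. Their part in this step was not tested.

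Over the first 4 days, E10.5 to E14.5, 28 members rose and 0 fell (background 25.4% higher and 20.2% lower), by a median of 1.30. Acaa1b with 5.14 ± 0.42, Ehhadh with 3.74 ± 0.34, Bdh1 with 3.53 ± 0.23, Crot with 2.72 ± 0.24, Acadl with 2.67 ± 0.20 and Acsl1 with 1.89 ± 0.25 had the largest changes. Over the last 4 days, E14.5 to E18.5, 25 rose and Acot2 fell (background 21.1% higher and 22.6% lower), by a median of 1.69. Here Fgf21 was called, with 0 and 0.0580 CPM at E14.5. Of the other members Cpt1a with 3.45 ± 0.21, Acsl1 with 2.77 ± 0.26, Pex11a with 2.68 ± 0.27, Acadm with 2.34 ± 0.23 and Acsl5 with 2.25 ± 0.22 had the largest changes. Cpt2, Hadh, Crot and Bdh1 were not called. Total reads alone gave a split over the last 4 days of 17 higher and 5 lower.

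The difference between the first and the last 4 days was tested for each member. The late change was larger for 4 of 30 members and smaller for 8, against a background of 7.80% and 16.9%. These counts are not far above the background, and the median difference was 0.11. The calls are therefore given for single genes and not for the members as a set. The 2 intervals share the E14.5 libraries, so the difference is that of 1 contrast over all 3 days. Cpt1a rose by 1.88 ± 0.35 more in the late interval (edgeR adjusted p = 0.0011), Pex11a by 1.64 ± 0.47, Eci2 by 1.12 ± 0.25 and Acsl5 by 1.11 ± 0.37. The changes were more negative late for Acot2, by -3.27 ± 0.38, for Bdh1, by -3.22 ± 0.35 (edgeR adjusted p = 1.7e-05), and for Crot, by -3.10 ± 0.38. Acaa1b differed by -2.95 ± 0.59, Ehhadh by -1.97 ± 0.51 and Acadl by -1.74 ± 0.31, and Cpt2 and Eci1 were the other 2. Bdh1 thus made nearly its whole rise by E14.5, and Cpt1a most of its rise after it. Scaling by total reads gave 1 larger and 11 smaller. Markers of other cells moved with this difference too. It was more negative for 3 of 3 granulocyte markers (median -8.48), 5 of 5 red cell markers (-6.64), 4 of 5 macrophage markers (-6.52), 2 of 6 mesenchyme markers (-2.36) and 1 of 3 megakaryocyte markers (-2.93), and more positive for 5 of 6 cholangiocyte markers (4.02). Granulocyte markers summed to 240 to 364 CPM at E14.5, above the E10.5 and E18.5 libraries, and cholangiocyte markers to 7.95 to 8.81 CPM, below them. The part of these lists in the members' difference was not tested.

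**Figure D2:**
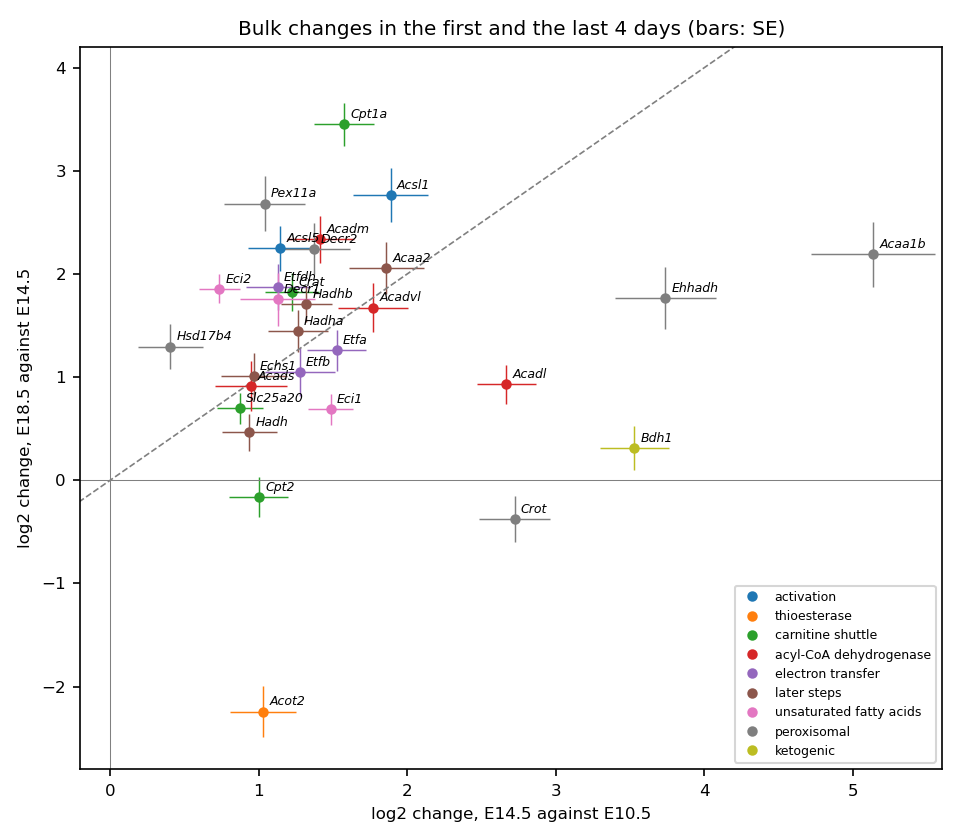
Change of each member but Fgf21 from E10.5 to E14.5 (horizontal axis) and from E14.5 to E18.5 (vertical axis), as log2 fold changes with SE bars, coloured by role; the dashed line marks equal change. Bdh1 and Crot lie near or below 0 on the vertical axis and well to the right, Cpt1a lies highest, and Acot2 lies alone at the bottom; both axes share the E14.5 libraries, so the axes are not independent.

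The last days held a second step. From E16.5 to E17.5, 7 members rose and 1 fell, against 5.89% and 7.21% of all genes. Cpt1a rose by 1.44 ± 0.20 (edgeR adjusted p = 0.00027), Acadm by 0.96 ± 0.22, Pex11a by 0.96 ± 0.25, Eci2 by 0.89 ± 0.14, Acaa2 by 0.84 ± 0.24 and Decr2 by 0.81 ± 0.24, and Acsl1 by 0.80 ± 0.24. Acot2 fell by 1.87 on the log2 scale ± 0.25 (edgeR adjusted p = 0.00022). The count was 3 without the second E16.5 library and 3 without the first E17.5 library. Scaling by total reads gave 3 higher and 5 lower. Of 5 macrophage markers 4 were called lower and 1 higher at this step, by a median of -3.62, while their summed level was 27.3 to 75.5 CPM at E16.5 and 35.3 to 68.0 CPM at E17.5. Of 3 granulocyte markers 2 were called lower, and their sum was 131 to 264 CPM and then 43.9 to 76.1 CPM. Their part in this step was not tested. From E17.5 to E18.5, 3 members rose and 0 fell (3.08% and 4.44% of all genes): Cpt1a by 1.34 ± 0.19 (edgeR adjusted p = 0.00085), Crat by 1.13 ± 0.18 and Acsl5 by 0.97 ± 0.21. Without TMM 3 were higher and 1 lower, and the count was 5 by DESeq2, 7 without a filter on low counts and 5 with the GC trend removed.

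Picked DLK+ cells, showed rises in nearly all members too. From E10.5 to E17.5, 28 members rose and 1 fell among 29 tested (background 14.2% higher and 15.2% lower), by a median of 2.40. The largest rises were those of Acaa1b with 5.18 ± 0.66, Cpt1a with 4.23 ± 0.57, Pex11a with 4.22 ± 1.20, Acsl1 with 4.06 ± 0.31, Ehhadh with 3.62 ± 0.45 and Acadl with 3.47 ± 0.20. Acot2 was at 57.9, 84.0 and 56.9 CPM at E10.5 and at 45.1, 30.5, 39.2 and 21.1 CPM at E17.5. These sums did not overlap, and Acot2 fell by 0.95 on the log2 scale ± 0.33 (edgeR adjusted p = 0.027). With total reads alone 21 members were called higher and 3 lower.

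In single DLK+ cells, 5 members (Fgf21, Pex11a, Cpt1a, Ehhadh and Acaa1b) were without a read in most cells of E10.5, which does not show that they were not expressed. Fgf21 had a read in 0 of 54 cells, which allows a share of up to 5.56%. Pex11a had a read in 10 of 54 cells at E10.5 (exact 95% interval 9.26 to 31.4%) and in 29 of 35 at E17.5, and Acaa1b in 26 of 54 at E10.5. Cpt1a had a read in 16 of 54 cells at E10.5 (29.6%, exact 95% interval 18.0 to 43.6%) and in 35 of 35 at E17.5. Ehhadh had a read in 20 of 54 cells at E10.5 and 32 of 35 at E17.5. Acsl1, Acadl, Acadm, Etfb and Acaa2 had reads in all 54 cells at E10.5. The median cell had 1049582 reads on the first of these days and 1168273 on the last, and intervals cover counting error only.

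From E10.5 to E14.5, 27 members rose and 0 fell in these cells (background 8.75% and 4.94%). Acaa1b rose by 4.49 ± 0.65, Bdh1 by 3.62 ± 0.21, Crot by 3.19 ± 0.28, Ehhadh by 3.14 ± 0.45, Acadl by 2.92 ± 0.20 and Cpt1a by 2.58 ± 0.54. From E14.5 to E17.5, 15 rose and 2 fell (background 5.03% and 5.62%). Acsl1 was at 456, 425 and 594 CPM at E14.5 and at 1846, 2755, 1492 and 2283 CPM at E17.5. The days did not overlap, and Acsl1 rose by 2.09 ± 0.28 (edgeR adjusted p = 6.6e-06). Acadm rose by 1.84 ± 0.24, Cpt1a by 1.65 ± 0.50, Decr2 by 1.53 ± 0.32, Acaa2 by 1.32 ± 0.21 and Decr1 by 1.21 ± 0.25. Acot2 changed by -1.54 ± 0.33 (edgeR adjusted p = 0.0018) and Cpt2 by -0.67 ± 0.20 (edgeR adjusted p = 0.027), and both were called lower. Bdh1, at 516, 526 and 522 CPM and then at 469, 451, 500 and 396 CPM, was not called, with a change of -0.20 ± 0.18. Without the first E14.5 sum the count was 11, and with total reads alone it was 3 higher and 8 lower. These comparisons share the E10.5, E14.5 and E17.5 sums with each other.

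**Figure D3:**
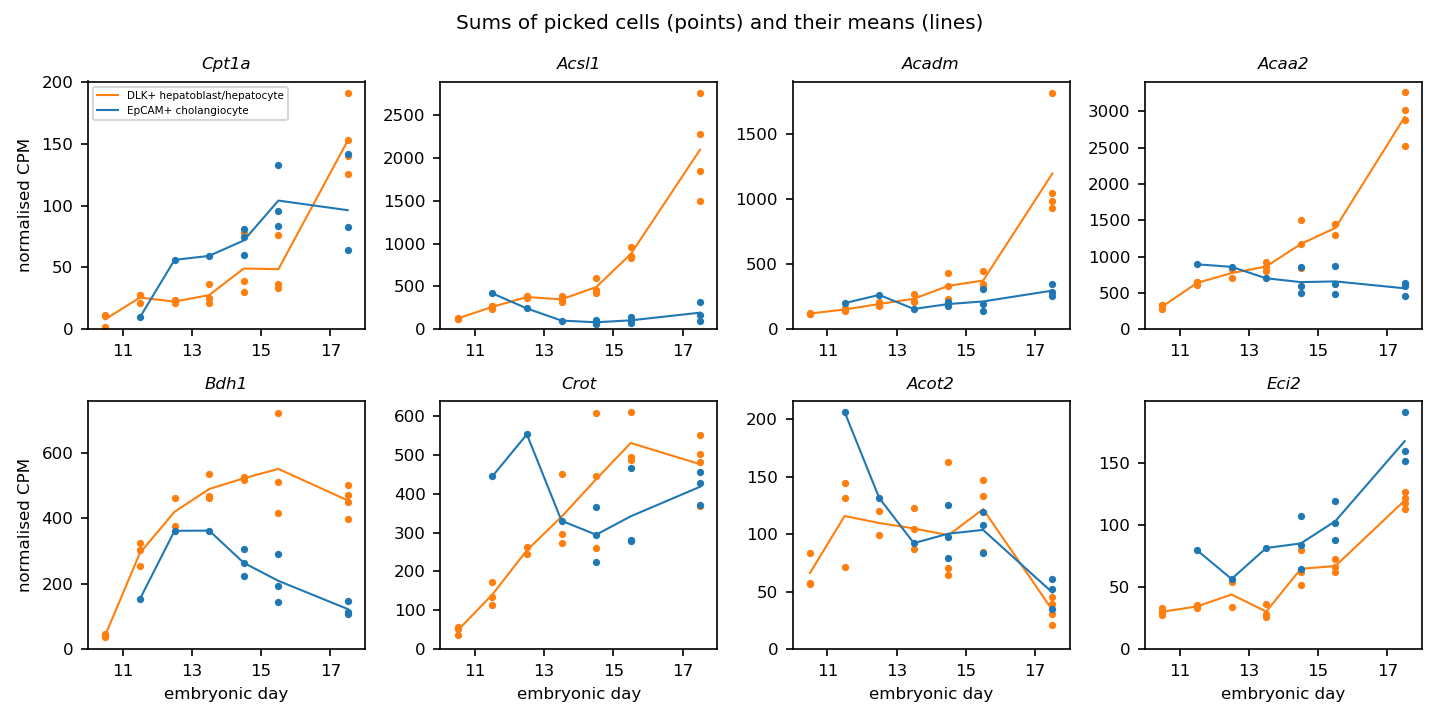
Level of 8 members in picked cells by embryonic day, in TMM-normalised CPM on linear axes from 0; each point is 1 sum of cells and lines join the means, in orange for DLK+ hepatoblast/hepatocyte and in blue for EpCAM+ cholangiocyte sums. Acsl1, Acadm and Acaa2 climb in DLK+ sums to E17.5 and lie lower in cholangiocyte sums of that day. The single E11.5 cholangiocyte sum, of only 2 cells, lies above the DLK+ sums in these 3 genes. Bdh1 in cholangiocyte sums is higher at E12.5 and E13.5 than at E11.5 and declines later. At E17.5 Eci2 reaches 152 to 191 CPM in cholangiocyte sums against 113 to 127 CPM in DLK+ sums.

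Cells annotated as cholangiocytes had lower levels of most members than DLK+ cells of the same days. Over 3 days together, E14.5 to E17.5, with 9 sums against 10, 25 members were lower and 1 was higher (background 19% higher and 16% lower), by a median of -1.18. Type and gate go together here, since the cholangiocytes came through the EpCAM+ gate. The summed level of 6 cholangiocyte markers at E17.5 was 6898 to 10307 CPM in cholangiocyte sums and 10.6 to 37.4 CPM in DLK+ sums. That of 6 hepatocyte markers was 37449 to 58147 and 319208 to 345112 CPM. Over the 3 days, 5 hepatocyte markers were called lower and 1 higher in cholangiocytes. Such markers may have taken part in the labels, and the cells were sorted on the product of Epcam, 1 of the cholangiocyte markers. The levels are thus no independent check of the labels. The summed level of 5 macrophage markers was 19.4 to 43.7 CPM in cholangiocytes of that day, with Adgre1, Cd5l and Marco at 0, and 0 to 12.0 CPM in DLK+ cells, and its part in the result was not tested. Under total reads alone the median of all genes was 0.69 rather than 0.16 and the split of members was 4 higher and 20 lower.

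Acsl1, at the entry into the pathway, differed most. It was at 167, 92.6 and 321 CPM in cholangiocytes at E17.5, far under the DLK+ sums given above for that day. Its difference over the 3 days was -3.04 ± 0.18 (edgeR adjusted p = 6.3e-15), and that of Acsl5 was -1.72 ± 0.15. Ehhadh differed by -2.76 ± 0.26, with 23.8, 24.1 and 16.6 CPM in cholangiocytes at E17.5 and 119, 103, 85.6 and 202 CPM in DLK+ cells. It had a read in 18 of 34 cholangiocytes of E17.5 (52.9%, exact 95% interval 35.1 to 70.2%). Pex11a with -2.27 ± 0.67, Etfb with -1.71 ± 0.10 and Acadvl with -1.64 ± 0.15 came next. All 5 genes of the later steps, all 4 dehydrogenases, all 3 electron transfer genes, all 6 peroxisomal members and Bdh1 (-1.43 ± 0.11) were among the 25.

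A few members did not share this. Eci2 was called higher, by 0.50 ± 0.12 (edgeR adjusted p = 0.0013). At E17.5 it was at 152, 160 and 191 CPM in cholangiocytes and at 117, 113, 127 and 122 CPM in DLK+ cells, while the sums of the 3 days overlapped. Cpt1a was not called, with a difference of 0.33 ± 0.29 (edgeR adjusted p = 0.43). At E17.5 its cholangiocyte sums of 83.0, 64.4 and 141 CPM overlapped the DLK+ sums of 140, 191, 153 and 125 CPM, and it had a read in 34 of 34 cholangiocytes. At E15.5 its cholangiocyte sums of 83.6, 95.8 and 133 CPM lay above the DLK+ sums of 33.1, 75.8 and 36.7 CPM. Decr1 also had both orders, with 197 to 303 CPM in cholangiocytes against 154 to 193 CPM at E15.5 and 215 to 233 CPM against 310 to 376 CPM at E17.5. The difference between these days was not tested. Decr1 (0.17 ± 0.15) and Acot2 (0.11 ± 0.20) were not called either. Crot was called lower, with a difference of -0.47 ± 0.15, which was 0.09 with total reads alone.

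The gate alone can be seen in EpCAM+ cells annotated as hepatoblast/hepatocyte. Against DLK+ cells of the same days, E11.5 to E14.5, 0 members were called in either direction by edgeR or by DESeq2, and 0 had an unadjusted p below 0.05. The background was 0.0238% higher and 0% lower. The median difference was 0.00, and the range was -0.58 to 0.18. Acaa2 stood at 900 ± 297 CPM (SD, n = 9) against 870 ± 262 CPM (n = 11), a difference of 0.01 ± 0.12, and Hadh differed by 0.00 ± 0.08. Within the EpCAM+ gate at E14.5, Acsl1 was at 509, 601 and 597 CPM in hepatoblast sums and at 113, 59.7 and 71.5 CPM in cholangiocyte sums. Bdh1 was at 527, 562 and 532 CPM against 305, 222 and 262 CPM, and Etfb at 412, 361 and 535 CPM against 167, 180 and 275 CPM. None of these 3 overlapped between types within the gate. They were chosen after their values were seen, and the share of all genes without overlap was not computed. Eci2 and Decr1 went the other way, also without overlap. Eci2 was at 39.2, 35.0 and 45.1 CPM in hepatoblast sums and at 107, 64.1 and 83.9 CPM in cholangiocyte sums. Decr1 was at 97.6, 107 and 156 CPM against 199, 192 and 255 CPM.

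**Figure D4:**
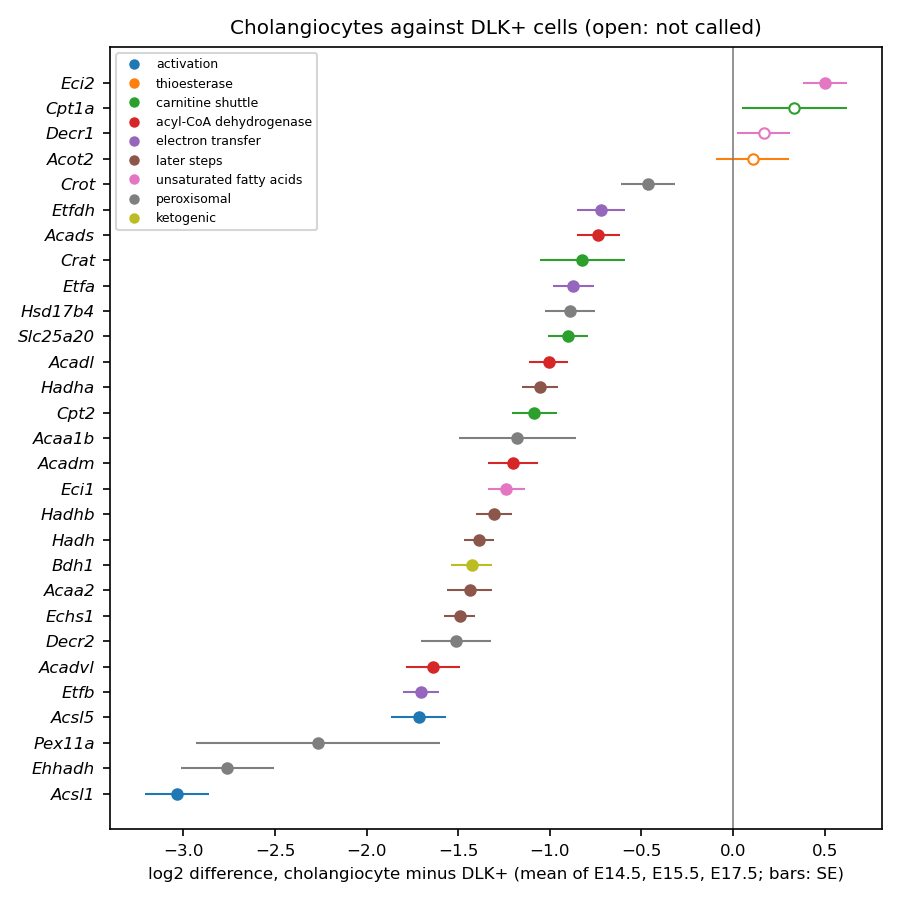
Difference of each tested member between cholangiocytes and DLK+ cells, as log2 fold change over the 3 days with SE bars, members sorted by size and coloured by role; open points were not called. Acsl1 and Ehhadh have the most negative values, -3.04 and -2.76, and Eci2 is the called point to the right of 0.

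At E17.5 alone, 23 members were called in cholangiocytes, all of them lower (background 23.7% called in either direction and 11.2% lower), by a median of -1.59. Acsl1 differed by -3.43 ± 0.30, Ehhadh by -2.57 ± 0.43, Etfb by -2.44 ± 0.17, Acaa2 by -2.37 ± 0.21, Acadvl by -2.24 ± 0.25 and Acsl5 by -2.10 ± 0.26. Acaa2 was at 590, 456 and 643 CPM against 2521, 3016, 2885 and 3260 CPM, so the types were widely apart. With total reads alone 3 were higher and 16 lower. In TPM Acaa2 still led the members in cholangiocytes of E17.5, with 779 ± 120 (SD, n = 3), before Etfa with 450, Acadl with 384 and Etfb with 355. In DLK+ cells of that day it took 1896 ± 220 TPM (n = 4), before Etfb with 902.

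From E14.5 to E17.5, 3 members were called in the cholangiocytes themselves by edgeR and 8 by DESeq2. Acsl1 rose by 1.25 ± 0.29 (edgeR adjusted p = 0.011) and Eci2 by 0.98 ± 0.22 (edgeR adjusted p = 0.0069), and Bdh1 fell by 1.10 on the log2 scale ± 0.19 (edgeR adjusted p = 7e-04). The background was 1.16% higher and 2.13% lower. Bdh1 was at 305, 222 and 262 CPM at E14.5, at 193, 143 and 289 CPM at E15.5 and at 113, 108 and 146 CPM at E17.5, and its first and last days did not overlap. Without the first E14.5 sum the count was 5, and with only these groups in the fit it was 0. With total reads alone 2 were higher and 3 lower.

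The test of the difference between these time courses called 6 members, all with a more negative change in cholangiocytes (background 1.10% more positive and 2.11% more negative). They were Acaa2 with -1.52 ± 0.29 (edgeR adjusted p = 0.0019), Etfb with -1.36 ± 0.23, Etfa with -1.35 ± 0.27, Acadm with -1.23 ± 0.33, Hadhb with -1.07 ± 0.24 and Hadh with -0.67 ± 0.19. All 6 are among the 19 members that act in mitochondria, of 29 tested. With most tested members in that place, this is not read as a result about it. Etfa, for example, was at 387, 431 and 586 CPM in cholangiocytes at E14.5 and at 321, 279 and 296 CPM at E17.5. In DLK+ cells it was at 376, 648 and 644 CPM and then at 791, 894, 980 and 938 CPM. Its means went down in cholangiocytes and up in DLK+ cells, and the cholangiocyte change alone was not called. With only these groups in the fit the count was 3. Scaling by total reads called 2 more positive and 2 more negative, and Hadh differed by 0.06.

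In explants, TPPB went with lower levels in EpCAM+ cells annotated as cholangiocytes. Controls gave 3 sums and each treatment 2. The first and second TPPB sums came with the first 2 control sums. U0126 and both agents together came with the third control sum, in another round of sets by the labels. The fit holds the round as a term, so a difference from control rests on the control sums of the same round. These were the first 2 for TPPB and only the third for U0126. Against control, 5 members were lower with TPPB and 0 higher (background 0.115% higher and 1.75% lower), by a median of -1.18 over 29 members. Acsl1 was at 6.92 and 5.35 CPM with TPPB and at 233, 95.7 and 231 CPM in controls, a difference of -4.74 ± 0.91 (edgeR adjusted p = 0.037). Bdh1 was at 23.9 and 10.7 CPM against 262, 243 and 195 CPM, a difference of -3.87 ± 0.50 (edgeR adjusted p = 0.0057). Neither gene overlapped between the groups. Acadl differed by -2.45 ± 0.40, with 128 and 161 CPM against 915, 667 and 745 CPM. Acadm differed by -2.24 ± 0.42 and Acaa2 by -2.21 ± 0.40. A further 7 members were lower at an unadjusted p below 0.05 only, and DESeq2 called 10. The count was 1 without the first TPPB sum, 2 without the second, and 1 without the first control sum. It was also 1 with total reads alone and 2 with at least 5 cells per sum.

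In single TPPB cells, Acsl1 had a read in 14 of 22 cells at a median of 0.289 TPM, against 21 of 22 control cells at 41.4 TPM. Bdh1 had a read in 15 of 22 cells with a median of 11.4 TPM, against 21 of 22 with 109 TPM. Ehhadh had a read in 1 of 22 cells against 12 of 22. Control cells came from both rounds of sets and TPPB cells from the first round only. These shares of cells were not tested. In sums, Ehhadh was at 0 and 4.16 CPM with TPPB. It was at 9.22 and 7.33 CPM in the first 2 control sums and at 93.7 CPM in the third, of the other round. Cpt1a, Etfb and Eci2 were not called, and Eci2 differed by 0.86 ± 0.72. Hepatocyte markers moved as well: their summed level was 421 to 1833 CPM with TPPB and 66620 to 175675 CPM in controls, and that of cholangiocyte markers was 11614 to 12643 and 467 to 9291 CPM. Red cell markers summed to 2.16 and 461 CPM in the 2 TPPB sums and to 12.4 to 31.2 CPM in controls, and macrophage markers to a mean of 13.6 CPM with TPPB and 58.3 CPM in controls. The part of these markers in the members' result was not tested.

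U0126 against control gave 0 calls in either direction (background 0% higher and 0% lower, edgeR), 0 by DESeq2 and 0 at an unadjusted p below 0.05. The members' median difference was 0.07 and the range -1.51 to 1.21. TPPB with U0126 against U0126 alone gave 0 calls as well (background 0% higher and 0% lower), 0 by DESeq2 and 0 at an unadjusted p below 0.05, with a median of -0.02. Acadl was at 414 and 662 CPM with both agents, 494 and 671 CPM with U0126, and differed by -0.11 ± 0.38 between them. Acaa2 was at 419 and 400 CPM against 383 and 426 CPM, a difference of 0.02 ± 0.38, and Bdh1 at 244 and 334 CPM against 161 and 255 CPM. Only the third control sum stands behind the difference of U0126 from control, and each treated group had 2 sums. These values therefore do not show that the treatments act alike. Whether TPPB acted differently with and without U0126 was not tested. Hepatocyte markers summed to 59275 to 113068 CPM with both agents and 52778 to 105367 CPM with U0126.

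**Figure D5:**
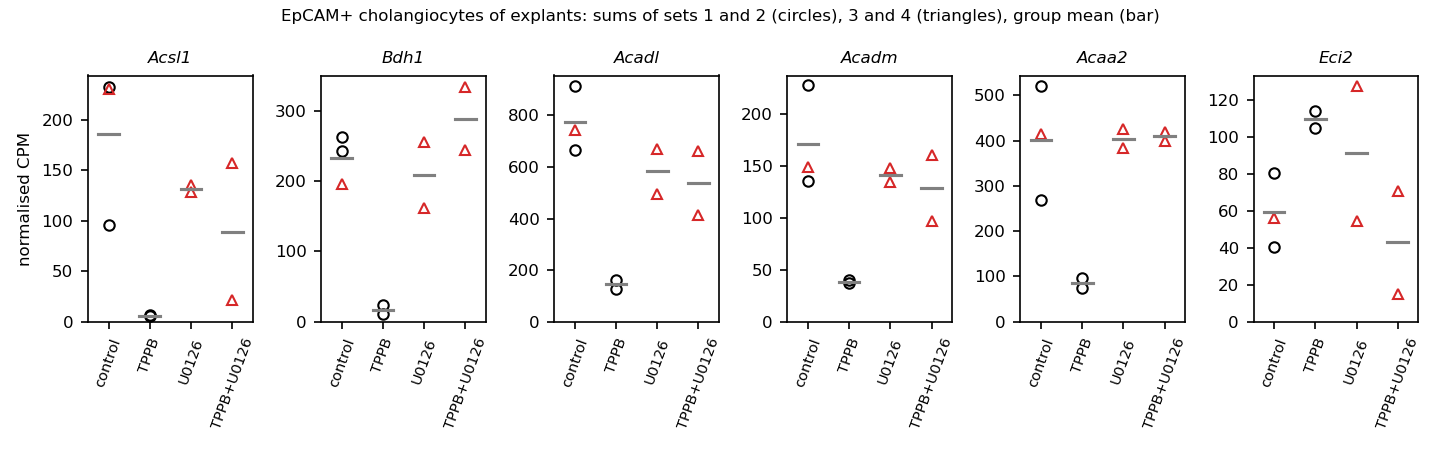
Level of 6 members in EpCAM+ explant sums annotated as cholangiocyte, in TMM-normalised CPM on linear axes from 0, by treatment; circles are sums of sets 1 and 2, triangles those of sets 3 and 4, and the grey bar is the group mean. TPPB sums lie below all control sums for Acsl1, Bdh1, Acadl, Acadm and Acaa2, and above them for Eci2, which was not called.

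Most other genes of the pathway rose in bulk too. Of 36 further pathway genes, 29 rose and 1 fell from E10.5 to E18.5, by a median of 2.32, beside the 32.6% higher and 32.5% lower among all genes. Acox2, a peroxisomal oxidase for bile acid precursors, rose by 11.01 ± 0.53, the bile acid and fatty acid ligase Slc27a5 by 8.28 ± 0.48 and the peroxisomal transporter Abcd2 by 6.82 ± 0.39. Of 18 regulators and Fgf21 receptors, 14 rose and 1 fell. Among them Ppara, the nuclear receptor of the pathway, went from 7.91 to 234 CPM (means of 2 libraries), a change of 4.88 ± 0.40. Of 11 other PPARA target genes tested, 11 rose, by a median of 5.25. Among them Cyp4a14, a fatty acid omega-hydroxylase, went from 0.0641 ± 0.0419 to 153 ± 9.85 CPM (SD, n = 2), and its E10.5 level rests on few reads. By contrast, 13 of 22 mitochondrial genes outside the pathway rose and 5 fell, by a median of 0.59, and 13 of 15 peroxisome biogenesis genes rose, by 1.15.

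In cholangiocytes against DLK+ cells, 25 of the 36 further pathway genes were lower and 3 higher, by a median of -1.14, beside 16% lower and 19% higher among all genes. Slc27a5 differed by -6.10 ± 0.57, Abcd2 by -5.30 ± 0.55 and Bdh2, a cytosolic dehydrogenase, by 4.07 ± 1.03. Ppara was at 18.8 CPM in cholangiocytes and 131 CPM in DLK+ cells, a difference of -2.58 ± 0.40. Of the mitochondrial genes outside the pathway 21 of 22 were lower and 0 higher, by a median of -0.83. Of the peroxisome biogenesis genes 7 of 15 were lower. With TPPB, 6 of the further pathway genes and 0 of the mitochondrial genes outside the pathway were called lower, with medians of -1.19 and -0.24, beside 1.75% of all genes.

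The binding element of PPARA, a direct repeat of AGGTCA with 1 base between, was sought in the promoters of members, both strands (RefSeq windows of 250 bases before and 50 after the start, GRCm38.p6). Promoters of 26 members were listed. With at most 1 mismatch in 12 bases, 0 of their 28 promoters held it, as did 0.554% of all 32851 promoters. With at most 2 mismatches 3 of 28 held it (10.7%), against 3.86% of all. These 3 matches are shown, in capitals, because their members rose in bulk, and no binding is claimed: they begin at -83 in Echs1, -77 in Etfa (minus strand, printed as on the gene's strand) and 6 in Slc25a20, counted from the start.
Echs1: AGGTCACGGGTCC
Etfa: TTACCTTTGCCCT
Slc25a20: AGGTGAAAGGTCG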

How the data were processed

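Raw read counts per gene were deposited by the authors for 18 bulk libraries and 529 picked cells. The submitters' processing notes name TopHat2 2.1.0, Bowtie2, HTSeq 0.6.0 and the build GRCm38 (mm10); no source says whether reads were counted by strand. Gene lengths came with the deposited counts and served for TPM. The 92 spike-ins were left out. Cells were summed per group and set number, with at least 2 cells, which gave 2338674 to 28130886 reads per embryo sum and 3157765 to 13737444 per explant sum. Genes kept by filterByExpr (15275 in bulk, 16838 in embryo cells, 13881 in explants) went into edgeR's quasi-likelihood test (version 4.0.16, R 4.3.3, TMM factors), in 1 fit each over the 18 libraries, 42 embryo sums and 9 explant sums of EpCAM+ cholangiocytes. Calls have a Benjamini-Hochberg adjusted p below 0.05, and SE is the absolute log2 change over the root of F. The labels do not say what a set or library number stands for, so p-values measure only the spread between these libraries or sums, which may be technical. Exact intervals (Clopper-Pearson) and limits for 0 reads (3 reads) cover counting error only, since reads carry no molecular identifiers. Alternatives were DESeq2 1.42.0, RLE factors, no filter, a replicate block, GC offsets (lowess), fewer groups in the fit, no round term, a minimum of 5 cells, leaving out each library or sum, and total reads alone.

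Members and lists were chosen with earlier results of these data known. All members are named by role for the whole bulk course; elsewhere up to 6 called members per direction by size are named, and of other lists up to 3 called genes of the largest change with a mean of at least 10 CPM. Members added to show a level or an overlap were chosen after their values were seen. Positions are from GENCODE M21 and promoter letters from RefSeq.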

Additional observations from a re-analysis of the deposited data

Results flagged for a closer look

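In DLK+ cells at E17.5, the fourth sum held Acadm at 1822 CPM, with the lowest of the 4 sums at 931.5 CPM, and its gap to the nearest sum was 0.866 of the range, above Dixon's critical value for 4 sums. Chance flags about 1 in 20 groups, and 29 groups were tested.

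The change from E14.5 to E17.5 differed between cholangiocytes and DLK+ cells in 6 members (edgeR, interaction term). The differences, cholangiocyte minus DLK+, were -1.52 for Acaa2 (adjusted p = 0.0019), -1.36 for Etfb (adjusted p = 0.00053), -1.35 for Etfa (adjusted p = 0.0029), -1.23 for Acadm (adjusted p = 0.034), -1.07 for Hadhb (adjusted p = 0.0075) and -0.67 for Hadh (adjusted p = 0.045). The difference of Acadm includes the outlying sum.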

How the results depend on the processing

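Of 7264 alternative values of single members (529 results), 6894 counted as unchanged, 237 lost the call, 110 gained one and 23 turned in direction. A turn was counted only where the main or the alternative value was called. Turns between values without a call stand among the unchanged. All 23 came from scaling by total reads alone, which was chosen after seeing the data and leaves the growing share of plasma protein genes in the scale. From E10.5 to E18.5 these were Cpt2 (-0.59) and Hadh (-0.03). From E14.5 to E18.5 they were Slc25a20 (-0.29), Acadl (-0.04), Acads (-0.05), Hadh (-0.51), Eci1 (-0.29) and Bdh1 (-0.65). In DLK+ cells from E10.5 to E17.5 they were Slc25a20 (-0.50), Cpt2 (-0.62) and Hsd17b4 (-0.02), and from E14.5 to E17.5 Acadl (-0.14), Hadha (-0.03), Echs1 (-0.39), Hadh (-0.45), Eci1 (-0.57) and Crot (-0.57). Between types they were Crot (0.09) over the 3 days, Slc25a20 (0.26), Cpt2 (0.05), Acads (0.13) and Crot (0.81) at E17.5, and Hadh (0.06) in the difference of courses. Counts of called members moved by over 1.5 times as follows; the cause was not tested. From E17.5 to E18.5 the count was 3, and 5 by DESeq2, 7 without a filter and 5 with the GC trend removed. In DLK+ cells from E14.5 to E17.5 it was 17, and 11 by total reads. In cholangiocytes from E14.5 to E17.5 it was 3, and 8 by DESeq2, 5 by total reads, 5 with the replicate block and 0 with only the groups compared in the fit. The difference of courses gave 6, and 3 with only those groups. TPPB gave 5, and 10 by DESeq2, 9 without a filter, 1 by total reads and 2 with at least 5 cells per sum. Leaving out 1 library or sum gave 6 to 11 calls for E11.5 against E10.5 (18 with all), 3 to 7 for E17.5 against E16.5 (8), 11 to 16 for DLK+ cells from E14.5 to E17.5 (17), 2 to 5 for cholangiocytes (3), 4 to 7 for the difference of courses (6), 8 to 15 for the late minus early change (12), 2 to 3 for E18.5 against E17.5 (3) and 1 to 5 for TPPB (5). For libraries and sums with the same number, the median correlation of their deviations was -0.035 in bulk (72 pairs), 0.011 in embryo sums (193 pairs) and 0.012 in explants (6 pairs). The bulk pairs were all of different days and the embryo pairs mostly so. The medians therefore cannot show whether embryo sums of the same day and set number pair. With the replicate block the counts were 30 for the whole bulk course, 17 for E11.5 against E10.5, 22 for cholangiocytes against DLK+ cells and 4 for TPPB. Genes of few reads, such as Fgf21 and Acaa1b, are limited by depth at E10.5.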

Other observations

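DLK+ cells of explants gave too few sums for a test, and their levels are CPM of all reads, without TMM factors. With TPPB, 1 sum of 6 cells held Acsl1 at 344, Bdh1 at 325, Acadl at 609, Acadm at 226 and Acaa2 at 907 CPM. The control sum of the same set, with 5 cells, held Acsl1 at 344, Bdh1 at 287, Acadl at 685, Acadm at 161 and Acaa2 at 847 CPM. These are the 5 members called lower with TPPB in EpCAM+ cholangiocytes. Whether the 2 kinds of cells differ in response was not tested.

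Cells annotated as cholangiocytes before E14.5 gave 1 sum per day, of 2 cells at E11.5, 3 at E12.5 and 9 at E13.5. Acsl1 was at 419 CPM at E11.5, above the DLK+ sums of 274, 274 and 234 CPM, at 242 CPM at E12.5, below 370 and 383 CPM, and at 101 CPM at E13.5, below 317, 339 and 389 CPM. Acaa2 was at 894 CPM at E11.5 and 858 CPM at E12.5, above the DLK+ sums of 652, 657 and 603 CPM and of 711 and 834 CPM, and at 702 CPM at E13.5, below 807, 862 and 922 CPM. Bdh1 was at 153, 361 and 362 CPM on these days, below all DLK+ sums of 255 to 324, 377 to 461 and 463 to 535 CPM. With 1 cholangiocyte sum a day these differences have no test.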
